A study of Mus musculus with 10 samples.

Results

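Cytosolic ribosomal proteins were followed in haematopoietic stem cells of control mice and mice labelled as knockouts of Dhx16, which encodes an RNA helicase of the DEAH family that acts in the spliceosome. The members were all protein-coding genes whose symbols follow the Rpl and Rps naming pattern of the large and small ribosomal subunits, the stalk genes Rplp0 to Rplp2, and Rpsa. The rule uses gene type and symbol only, but it was chosen with earlier results of these data known. The rule gave 84 of 52097 genes, 52 of the large and 32 of the small subunit, on 19 chromosomes, and 7 of the 84 were "-like" paralogs such as Rps27l. About 5000 cells per sample were sorted from bone marrow, by the markers Lin-, Sca-1+, c-Kit+, CD48- and CD150+, and polyadenylated RNA was amplified with a Smart-Seq kit for low inputs and sequenced. There were 5 control samples, titled Dhx16_fl with the genotype label WT, and 5 knockout samples, titled Dhx16_CKO with the genotype label KO. The labels used here name no Cre driver, strain, age or sex, and do not say whether each sample is a separate animal, so p-values measure only the spread between samples. In these bulk samples, fewer cells of a type and less RNA per cell cannot be told apart.

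A cytosolic ribosome holds 1 copy of almost every ribosomal protein, so cells make these proteins in matched amounts, and each subunit is put together in the nucleolus on ribosomal RNA. The mRNAs begin with a C and a run of pyrimidines, the terminal oligopyrimidine or TOP motif, through which mTORC1 and the RNA-binding protein Larp1 set how much of them is translated. Stem cells of the marrow keep protein synthesis low, and inherited loss of 1 copy of a ribosomal protein gene causes Diamond-Blackfan anaemia, in which red cell precursors fail and p53 is activated.

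Promoters of 6 members are shown for the genes on which the results below turn, namely 2 paralog pairs and the largest rises of each subunit outside the pairs for which a promoter was found. Each stretch runs from 80 bases before to 20 bases after the RefSeq transcription start in GRCm38.p6, the assembly of mm10, 5′ to 3′ on the gene's strand. Capitals mark 3 searched motifs on either strand: CCGGAA (read by ETS-type factors such as Gabpa), AAGATGG (YY1-type) and GGGCGG (Sp1-type). The stretch of Rps27 lies at chr3:90213629-90213728 on the minus strand, and that of Rps27l at chr9:66946006-66946105 on the plus strand. The stretches of Rpl22 (chr4:152325646-152325745) and Rpl22l1 (chr3:28805428-28805527) are both on the plus strand. Rps2 is at chr17:24719983-24720082 on the plus strand and Rpl41 at chr10:128549149-128549248 on the minus strand.
Rps27: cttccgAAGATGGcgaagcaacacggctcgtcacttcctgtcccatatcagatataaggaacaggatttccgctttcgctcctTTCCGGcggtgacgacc
Rps27l: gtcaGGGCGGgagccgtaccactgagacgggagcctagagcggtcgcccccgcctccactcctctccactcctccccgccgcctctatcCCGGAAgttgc
Rpl22: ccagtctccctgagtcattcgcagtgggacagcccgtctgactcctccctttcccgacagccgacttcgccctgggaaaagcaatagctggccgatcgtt
Rpl22l1: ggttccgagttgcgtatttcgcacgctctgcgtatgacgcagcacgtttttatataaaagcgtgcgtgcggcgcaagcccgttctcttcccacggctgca
Rps2: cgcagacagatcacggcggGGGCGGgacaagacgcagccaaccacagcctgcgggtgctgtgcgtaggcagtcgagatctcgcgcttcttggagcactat
Rpl41: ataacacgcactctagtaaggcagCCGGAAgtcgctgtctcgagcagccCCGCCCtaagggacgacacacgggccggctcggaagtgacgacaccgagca

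Rps27 held the YY1-type and the ETS-type letters, and Rps27l the ETS-type and the Sp1-type letters. Neither stretch of the Rpl22 pair held any of the 3 motifs, although the longer window of Rpl22l1 held GGGCGG. Over the full windows of 250 bases before to 50 after the start, 64 of the 84 members had a RefSeq promoter, in 76 windows. CCGGAA was in 47.4% of the member windows and in 14.9% of all 32851 windows of that length, AAGATGG in 15.8% and 6.34%, and GGGCGG in 60.5% and 35.7%. A run of at least 8 C or T bases touching the stretch from 10 bases before to 12 after the start was in 39.5% of member windows and 14.3% of all windows. The longest such run was 9 bases in Rps27 and Rps27l, 10 in Rpl22l1, 4 in Rpl22, 6 in Rps2 and 3 in Rpl41. A match of letters is a description, not a bound site.

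Values are FPKM, fragments scaled to transcript length and sequencing depth. The length behind them was about 192 (WT3) to 269 (CKO7) nt shorter than the annotated one, as estimated from single-fragment genes. This weighs most on short transcripts, so levels compare only roughly between genes of unlike length. A share of summed FPKM is likewise not a share of fragments. Depth was about 12200000 to 19300000 fragments per library, estimated from genes seen as single fragments. Dhx16 itself was at 14.33 to 22.63 FPKM in controls and 7.1 to 10.88 FPKM in knockouts, with no overlap, and whether these values cover the deleted part is not known. The control library WT4 stood apart: it was the highest control for 81 of the 81 members tested. The counts of members called and of members without overlap are given without it as well. Correlations over members, most counts and medians of subgroups and most changes of single genes include WT4 and are not given without it. Of the sort markers, Kit and Ly6a were not called, Slamf1, Procr, Mecom and Hlf were lower in knockouts, and Cd48 was below the filter. Summed FPKM of 8 erythroid genes was 119.8 to 396.6 in controls and 753.4 to 1177 in knockouts, and 8 of the 8 rose. Cycling genes summed to 182.6 to 295.0 FPKM in controls and 582.5 to 807.7 FPKM in knockouts, and 5 of 6 rose, with Mki67 below the filter. Globins summed to 216.2 to 2863 FPKM and 1214 to 8151 FPKM (4 of 4 rose), and macrophage genes to 117.3 to 271.8 FPKM and 10.57 to 27.52 FPKM. Of the 6 macrophage genes, C1qa, C1qb and C1qc fell, while Mrc1, Adgre1 and Cd163 were below the filter and not tested. Bone matrix genes (3180 to 65870 against 4549 to 47778 FPKM) and granulocyte genes (9623 to 74170 against 8348 to 40842 FPKM) overlapped and had 0 of 6 called each. Lymphocyte genes summed to 30.47 to 48.84 FPKM in controls and 18.82 to 31.86 FPKM in knockouts. Of these only Cd79b passed the filter, and it was lower. It made up most of the sum, at a control mean of 34.9 of 37.9 FPKM.

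The mRNAs of nearly all ribosomal proteins were higher in knockout cells. Of the 84 members, 81 reached 10 FPKM in at least 5 libraries and were tested, and 78 of these rose, 0 fell and 3 were not called (limma on log2 of FPKM + 1, adjusted p under 0.05 over 6913 genes). Among all genes tested, 21.1% were called higher and 31.6% lower, and the median change was -0.12 on the log2 scale against 0.79 for the members. In the large subunit 47 of 49 rose with a median change of 0.79 (0.35 to 1.37), and in the small subunit 31 of 32 rose with a median change of 0.84 (0.35 to 1.56). The fold of group means had a median of 1.72 over the 81 members and ran from 1.22 for Rps27 to 2.85 for Rps27l. All 5 knockout libraries lay above all 5 controls for 54 of the 81 members, 33 large and 21 small, and for 12.9% of all genes tested. Without WT4, 81 of 81 members were called higher (23.3% of all genes) and 81 of 81 did not overlap (17.7% of all genes). WT4 was the highest control for each of these members, so leaving it out could not lower the count without overlap. That count was not made with other libraries left out.

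The summed erythroid, cycling and macrophage genes moved between the groups as well, without overlap, the first 2 in the same direction as the members. With the erythroid score of each library as a covariate, 0 of 81 members were called, beside 0.0145% of all genes tested (1 of 6913). In that fit the median change of the members was 0.99, and 81 of 81 were above 0. An unadjusted p under 0.05 (limma) was found for 50 of the 81 members, beside 1020 of the 6913 genes tested. The lowest adjusted p of the members was 0.184, and their median standard error was 0.41 in place of 0.16. When the scores of bone matrix and granulocyte genes were the covariates instead, 64 of 81 members were called higher, beside 13.8% of all genes tested. Genotype and the erythroid score cannot be told apart in these libraries. The part of the cycling and macrophage genes in the result was not tested.

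**Figure D1:**
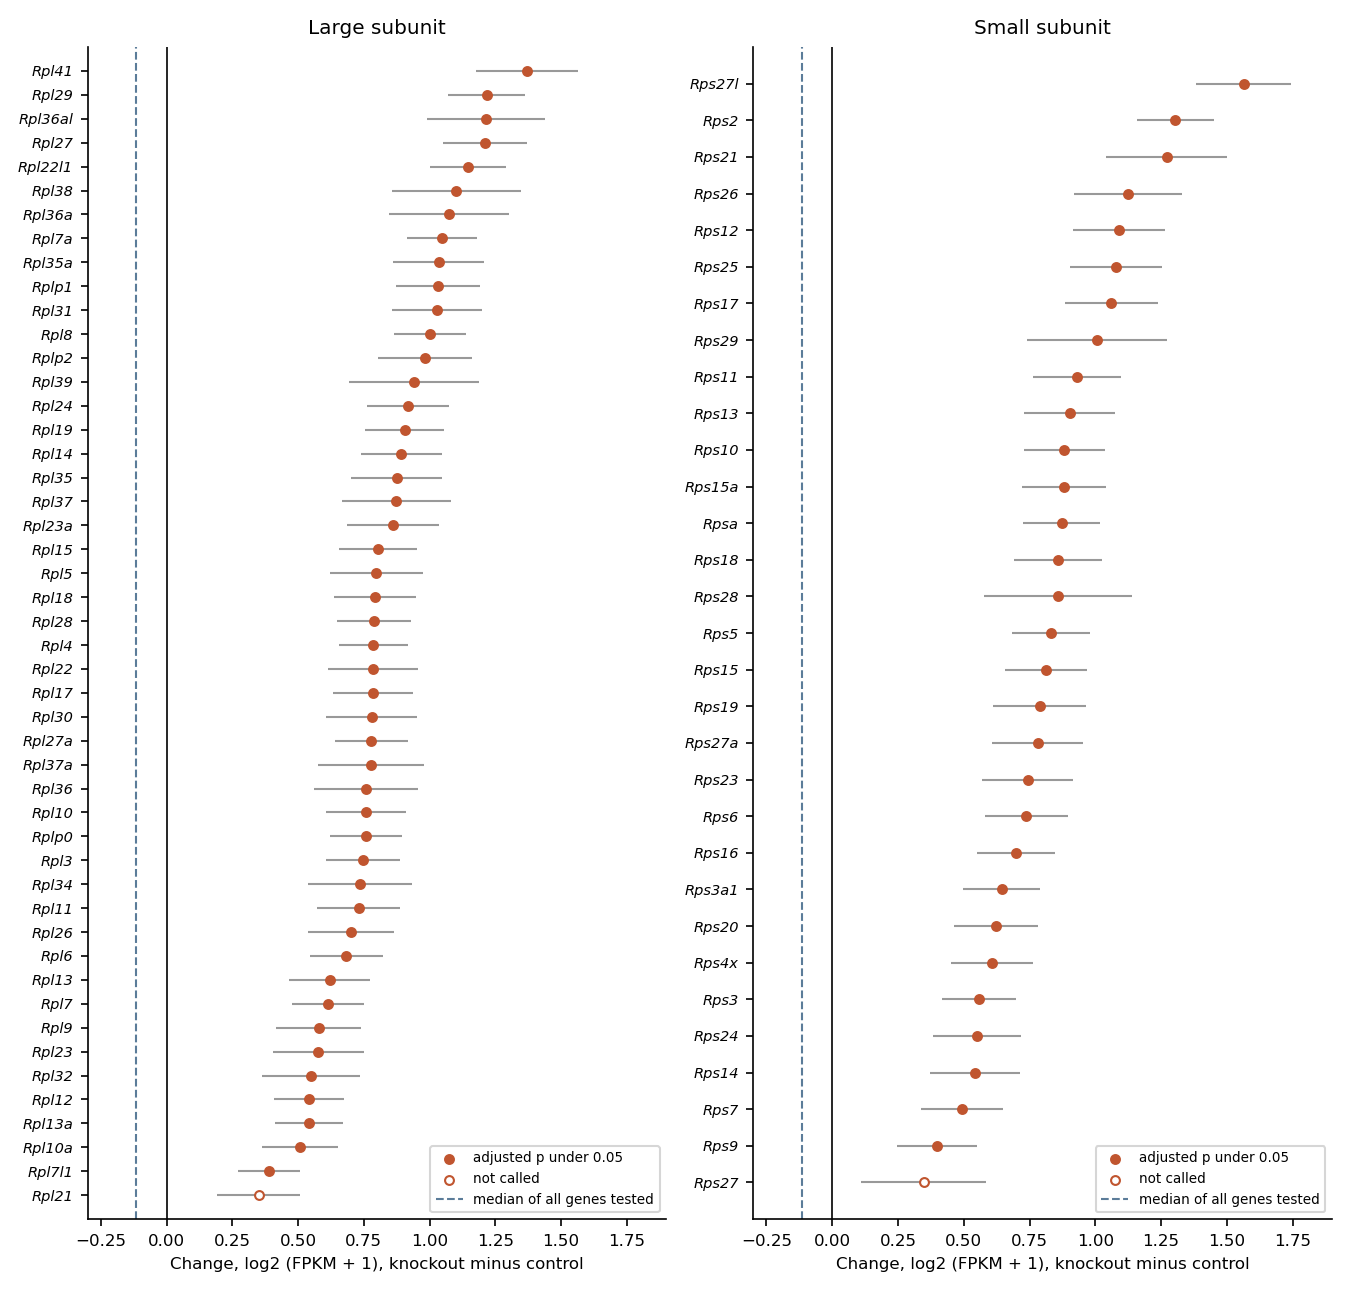
Change of tested ribosomal protein genes, knockout minus control in log2 (FPKM + 1), with bars of 1 standard error (limma, 5 libraries a group), for the large (left) and small (right) subunit; filled points have an adjusted p under 0.05 and the dashed line is the median of all genes tested. The points shown lie right of 0, from 0.35 to 1.56, and the open points are Rpl21 and Rps27.

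The authors' deposited table gave the same direction on another scale. It called 81 of the 83 members that had an adjusted p higher and 0 lower, beside 17.1% of the 23405 genes with a value. Its log2 fold changes had a median of 1.20 (0.65 to 1.88) for the 81 members. They exceeded the changes in FPKM by a median of 0.38, from 0.01 for Rpl22 to 0.51. Dividing by the size factors recovered from that table moved the median change of all genes tested to 0.27 and that of the members to 1.19. On that scale 81 of 81 members were higher, and 46.4% of all genes were higher.

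Taken as a share of all FPKM in a library, the members made up 11.1% (WT2), 10.9% (WT3), 14.8% (WT4), 11.2% (WT5) and 11.3% (WT6) of the controls. In the knockouts they made up 19.5% (CKO7), 16.8% (CKO8), 18.2% (CKO9), 20.2% (CKO12) and 16.6% (CKO13). Every knockout was above every control, WT4 included. The means were 11.9% ± 1.65 and 18.3% ± 1.58 (SD, n = 5 each, exact permutation p = 0.00794, two-sided, the smallest that 5 against 5 can give). The summed members went from 99468 to 167427 FPKM, 1.68 times, while all other genes together went from 731409 to 748369 FPKM, 1.02 times. Both subunits changed by nearly the same factor, the large from 57372 to 96413 FPKM (1.68 times) and the small from 42096 to 71014 FPKM (1.69 times). The ratio of small to large was 0.729 ± 0.029 in controls and 0.735 ± 0.014 in knockouts, ranges that overlap.

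**Figure D2:**
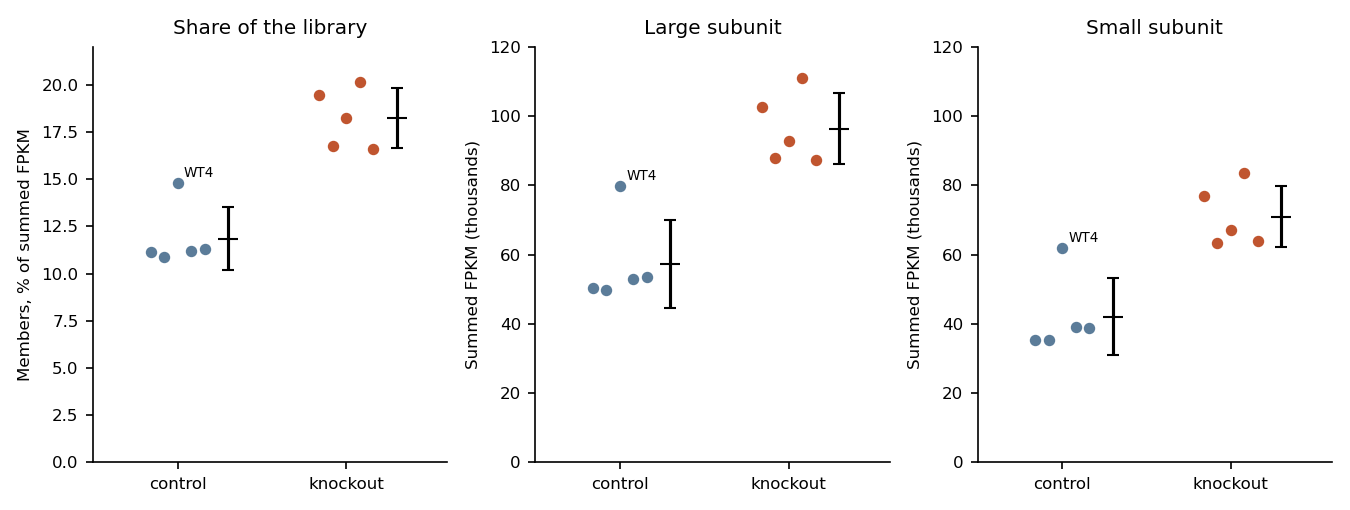
Ribosomal protein genes in each library as a percent of summed FPKM (left) and as summed FPKM of the large and small subunit (axis in units of 1000); points are libraries, and the bars beside them are the mean ± SD of 5 libraries. The control WT4, at 14.8%, is the control nearest to the knockouts, whose lowest share is 16.6%.

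Levels in FPKM differed widely between members. The lowest control mean among tested members was 53.9 FPKM, that of Rpl7l1. Over the tested members the mean had a median of 943 FPKM in controls and 1608 FPKM in knockouts. The SD over the 77 members outside the -like paralogs was 0.99 to 1.06 log2 units in the control libraries and 0.93 to 0.99 in the knockout libraries. Across the 81 members the change had a Spearman correlation of -0.38 with the control level and of -0.34 with transcript length. These are descriptions over genes that share the same 10 libraries. WT4 is among these libraries, and the correlations were not computed without it.

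In the large subunit, Rpl41, which encodes one of the shortest proteins known, had the largest change. Rpl41 (chromosome 10, 128548114 to 128549305) was at 1744.5, 1897.9, 3706.3, 1927.4 and 2543.5 FPKM in controls WT2 to WT6. Its knockout libraries CKO7, CKO8, CKO9, CKO12 and CKO13 were at 6214.6, 5324.8, 5248.6, 6665.6 and 6021.3 FPKM. The knockouts stood clear of the controls even with WT4 among them, and the change was 1.37 ± 0.19 (SE, limma adjusted p = 5.09e-05).

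Rpl29 (chromosome 9, 106429454 to 106431568), a small basic protein of the subunit surface, rose from 528.8, 466.9, 735.0, 453.6 and 498.1 FPKM to 1318.9, 1123.7, 1196.2, 1301.5 and 1214.7 FPKM. Its lowest knockout exceeded its highest control by more than the whole range of the knockouts, and the change was 1.22 ± 0.15 (adjusted p = 1.36e-05). Rpl27 (chromosome 11, 101442298 to 101445529) spanned 427.3 to 768.8 FPKM in controls and 1112.3 to 1314.3 FPKM in knockouts (1.21 ± 0.16, adjusted p = 2.88e-05).

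At the other end, Rpl21 (chromosome 5, 146832890 to 146837032) was at 714.2, 796.5, 1145.6, 847.5 and 749.3 FPKM in controls and at 1148.1, 965.2, 992.5, 1346.2 and 942.2 FPKM in knockouts. WT4 lay among the knockouts, and the difference of 0.35 ± 0.16 was not called (adjusted p = 0.0739). Without WT4 it was called, at 0.46 (adjusted p = 0.00433). Rpl10a, the protein of the L1 stalk, through which spent tRNA leaves, rose by 0.51 ± 0.14 (adjusted p = 0.00843), from 979.9 ± 140 to 1392 ± 192 FPKM, with WT4 just above the lowest 2 knockouts.

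The 5S particle genes Rpl5 and Rpl11 encode proteins that carry 5S ribosomal RNA into the large subunit and, when ribosome assembly is disturbed, bind the p53 ligase Mdm2. Rpl5 (chromosome 5, 107900502 to 107909005) was at 332.9, 379.3, 646.1, 376.2 and 332.0 FPKM in controls and 773.4, 647.0, 654.4, 804.8 and 617.3 FPKM in knockouts (0.80 ± 0.18, adjusted p = 0.00149). Rpl11 (chromosome 4, 136028265 to 136053428) was at 939.9, 918.7, 1446.4, 964.4 and 905.2 FPKM in controls and 1845.9, 1472.9, 1633.2, 2009.3 and 1537.1 FPKM in knockouts (0.73 ± 0.16, adjusted p = 0.00136). The controls other than WT4 lay close together in both genes, while WT4 was inside the knockout range for Rpl5 and just below it for Rpl11.

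The stalk that recruits the GTPases of translation is made of Rplp0, its base, and Rplp1 and Rplp2. Rplp0 (chromosome 5, 115559467 to 115563727) rose from 3185 ± 315 to 5379 ± 428 FPKM (0.76 ± 0.14, adjusted p = 0.000338). Rplp1 rose from 2182 ± 469 to 4411 ± 454 FPKM (1.03 ± 0.16, adjusted p = 9.98e-05). Rplp2 rose from 640.5 ± 182 to 1246 ± 216 FPKM (0.98 ± 0.18, adjusted p = 0.00036). For each of the 3 the knockouts lay above all controls. The log2 ratio of Rplp2 over Rplp1 differed by -0.05, and by -0.12 to 0.00 when single libraries were left out, with overlapping groups (exact permutation p = 0.619, adjusted p = 0.619).

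In the small subunit the largest rise was that of Rps27l, described with its partner below. Next came Rps2 (chromosome 17, 24718116 to 24721929), which lines the channel where mRNA enters the ribosome. Rps2 was at 1965.6, 1682.9, 2569.6, 1732.8 and 1957.6 FPKM in controls and 5399.0, 4657.0, 4731.1, 4955.4 and 4511.3 FPKM in knockouts. Its knockouts were all far above WT4, the highest control, and the change was 1.31 ± 0.15 (adjusted p = 9.74e-06).

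Rps21 (chromosome 2, 180257377 to 180258445) spanned 170.3 to 449.4 FPKM in controls and 490.8 to 773.2 FPKM in knockouts (1.27 ± 0.23, adjusted p = 0.000491).

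The smallest called changes of the small subunit were those of Rps9, Rps7 and Rps14. Rps9, which joins the subunit early, was at 2161 ± 328 FPKM in controls and 2851 ± 406 FPKM in knockouts (0.40 ± 0.15, adjusted p = 0.0372). Leaving out any one of 8 libraries (WT2, WT3, WT5, WT6, CKO7, CKO8, CKO9 or CKO12) ended its call, with adjusted p up to 0.0962, whereas without WT4 the adjusted p was 0.0022. Equal library totals (limma adjusted p = 0.063) and no filter (0.066) also ended the call. So did the bone matrix and granulocyte scores as covariates (limma adjusted p = 0.166) and the erythroid score (0.466). Rps7 rose from 1204 ± 233 to 1685 ± 232 FPKM (0.49 ± 0.15, adjusted p = 0.0141) and Rps14, the gene lost in human 5q- syndrome, from 2422 ± 576 to 3487 ± 503 FPKM (0.54 ± 0.17, adjusted p = 0.015). All 3 had WT4 within the range of the knockouts.

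Rps19, the gene mutated most often in Diamond-Blackfan anaemia, was at 2391.9, 2428.4, 4439.5, 2789.3 and 2885.2 FPKM in controls and 5306.2, 4860.8, 5151.0, 5674.0 and 4249.0 FPKM in knockouts. WT4 exceeded only CKO13, and the change was 0.79 ± 0.18 (adjusted p = 0.00167). Of 21 members whose human orthologs are mutated in that disease, 20 rose with a median change of 0.80, beside 58 of the 60 other tested members with a median of 0.79. All 30 members that hold a small nucleolar RNA gene, 58 such RNAs in all, were tested. Of these 30, 28 rose with a median of 0.78, beside 50 of 51 without one and a median of 0.83.

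Paralogs were compared within each library, where scaling between libraries has no effect. Rps27 and Rps27l encode nearly identical zinc-binding proteins of the small subunit, and Rps27l is a known p53 target. Rps27 (chromosome 3, 90212522 to 90213651) was at 2874.9, 3125.6, 7360.2, 4045.8 and 4026.5 FPKM in controls and 6027.3, 4353.5, 4310.3, 6996.5 and 4537.0 FPKM in knockouts. WT4 was its highest library of all 10, and its difference of 0.35 ± 0.24 was not called (adjusted p = 0.229). Leaving out single libraries moved it from 0.22 (without WT2, adjusted p = 0.471) to 0.56 (without WT4, adjusted p = 0.0102). It was also 0.24 without CKO12. Rps27l (chromosome 9, 66946086 to 66949516) was at 174.6, 176.7, 339.1, 157.7 and 171.8 FPKM in controls and 548.9, 622.8, 544.2, 559.4 and 628.4 FPKM in knockouts (1.56 ± 0.18, adjusted p = 1.07e-05). With all 10 libraries, the smallest and the largest fold of means among the 81 tested members thus belong to partners. Without WT4 the fold was 1.49 for Rps27, above those of Rpl7l1 (1.35), Rpl21 (1.39) and Rps9 (1.41), while that of Rps27l, at 3.41, remained the largest.

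The linear ratio of Rps27l to Rps27 went from 0.0486 to 0.113, so Rps27 remained the main form in both groups. On the log2 scale the ratio was -4.67 to -4.03 in controls and -3.64 to -2.80 in knockouts, without overlap. The difference was 1.22, and all 5 knockouts were above all 5 controls (exact permutation p = 0.00794, two-sided, adjusted p = 0.0159 over the 6 pairs tested). It was 1.13 to 1.34 when single libraries were left out. In the authors' deposited table the log2 fold changes were 1.88 for Rps27l and 0.65 for Rps27.

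Rpl22 is an RNA-binding protein of the large subunit needed for T cell development, and its protein is known to repress its paralog Rpl22l1. Rpl22 (chromosome 4, 152325742 to 152334071) was at 175.1, 198.6, 331.3, 163.5 and 185.3 FPKM in controls and 371.2, 318.9, 334.4, 404.9 and 334.1 FPKM in knockouts (0.78 ± 0.17, adjusted p = 0.00139). Rpl22l1 (chromosome 3, 28805436 to 28807424) was at 215.5, 243.3, 348.1, 224.4 and 209.8 FPKM in controls and 574.2, 528.5, 509.6, 567.7 and 525.4 FPKM in knockouts (1.15 ± 0.14, adjusted p = 1.97e-05). Both rose, the paralog by more. Their ratio went from 1.20 to 1.54, a log2 difference of 0.36 with no overlap (exact permutation p = 0.00794, adjusted p = 0.0159, 0.31 to 0.41 with single libraries left out). The annotated lengths differ, 2048 nt for Rpl22 and 538.5 nt for Rpl22l1. With all genes tested split by length into 5 equal bins, genes outside the set had a median change of -0.17 in the bin of Rpl22. In the bin of Rpl22l1 it was 0.06. The part of length in the ratio was not tested. In the authors' deposited table the log2 fold changes were 1.35 for Rpl22l1 and 0.79 for Rpl22.

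Rpl36a and Rpl36al, 2 forms of the same large-subunit protein, rose together. Rpl36a (chromosome X, 134585654 to 134588062) went from 608.2 ± 289 to 1205 ± 175 FPKM (1.07 ± 0.23, adjusted p = 0.00128). Rpl36al (chromosome 12, 69182731 to 69184083) went from 339.9 ± 166 to 738.7 ± 85.4 FPKM (1.21 ± 0.23, adjusted p = 0.000545). In both genes WT4 lay inside the knockout range. Their log2 ratio differed by 0.14, and by 0.08 to 0.18 when single libraries were left out (exact permutation p = 0.198, adjusted p = 0.238), with overlapping groups.

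Rpl7l1, related to a factor of large-subunit assembly, had the lowest FPKM of the tested members. It was at 59.1, 55.9, 59.2, 49.9 and 45.6 FPKM in controls and 67.9, 75.9, 81.4, 59.4 and 70.2 FPKM in knockouts (0.39 ± 0.12, adjusted p = 0.0122). The groups did not overlap, but CKO12 was only just above the highest control, and with equal library totals the call was lost (0.25, adjusted p = 0.139). The call of Rpl7l1 was also lost with the bone matrix and granulocyte scores as covariates (0.31, limma adjusted p = 0.0805). With the erythroid score it was lost as well (0.64, limma adjusted p = 0.33). Its partner Rpl7 rose from 829.6 ± 95.7 to 1272 ± 166 FPKM (0.61 ± 0.14, adjusted p = 0.00169). Their log2 ratio differed by -0.23, and by -0.29 to -0.10 when single libraries were left out (exact permutation p = 0.198, adjusted p = 0.238). CKO12, the knockout with the lowest Rpl7l1 and the highest Rpl7, had the lowest ratio at -4.66, and the value nearest 0 is the one without it.

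Rps4l is annotated as a transcribed processed pseudogene and is no member. It was at 33.4, 16.1, 28.6, 19.8 and 25 FPKM in controls and 16.7, 12.4, 14.1, 10.9 and 18.6 FPKM in knockouts (-0.70 ± 0.19, adjusted p = 0.00628). Rps4x, the parent gene on chromosome X, rose from 1297 ± 207 to 1980 ± 326 FPKM (0.61 ± 0.16, adjusted p = 0.00409). The log2 ratio of the copy to its parent fell by 1.31, from a range of -6.09 to -5.25 in controls to -7.68 to -6.39 in knockouts (exact permutation p = 0.00794, adjusted p = 0.0159). In the authors' deposited table the log2 fold change of Rps4l was -0.39 with an adjusted p of 0.099. Whether reads were shared between this copy and its parent was not tested.

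The 3 members below the filter are forms known from other tissues. Rpl3l, the form of striated muscle, was at 0.09 to 0.77 FPKM over all libraries. Rpl10l and Rpl39l, forms of the testis, were at 0 to 0.61 and 0 to 1.59 FPKM. Their partners rose: Rpl3 from 1725 ± 172 to 2901 ± 357 FPKM (0.75 ± 0.14, adjusted p = 0.000474), Rpl10 from 1598 ± 284 to 2689 ± 326 FPKM (0.76 ± 0.15, adjusted p = 0.0007) and Rpl39 from 289.0 ± 138 to 525.5 ± 108 FPKM (0.94 ± 0.25, adjusted p = 0.00652). In the authors' deposited table the mean normalized counts of the 3 low forms were 3.07 (Rpl3l), 1.54 (Rpl10l) and 4.28 (Rpl39l), so their levels rest on a few reads.

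**Figure D3:**
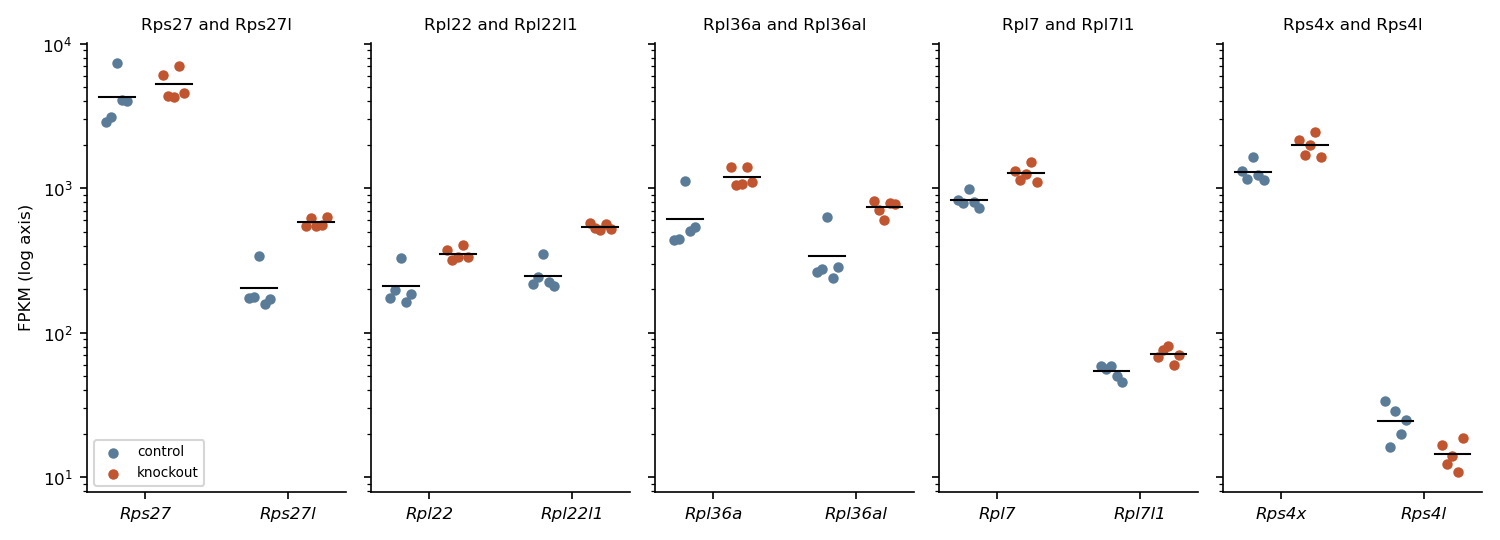
FPKM (log axis) of 5 paralog pairs in each control and knockout library; points are libraries and lines are the means of 5. Rps27l and Rpl22l1 move up more than Rps27 and Rpl22, while the pseudogene Rps4l is lower in knockouts and its parent Rps4x is higher.

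Genes named as ribosomal protein pseudogenes can take reads from their parents. Of 275 such genes, 265 had a value above 0 and 29 were tested, of which 19 rose, beside 21.1% of all genes tested, and 0 fell. Together they summed to 959.2 ± 391 FPKM in controls and 1681 ± 363 FPKM in knockouts, against 99468 and 167427 FPKM for the members. Counting them with the members gave shares of 11.97% and 18.44% of the library. Of the members, 19 overlap another annotated gene, and the strand setting of the counting is not given in the sources used here.

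WT4 and transcript length were examined together because ribosomal protein mRNAs are short, with a median annotated length of 711.5 nt against 1655 nt for all genes tested. WT4 exceeded the mean of the other 4 controls by a median factor of 1.58 over the 81 members (1.12 to 2.48). The factor was 1.76 for the 27 members under 600 nt and 1.39 for the 23 members of 900 nt or more, and its Spearman correlation with length was -0.58 across members. The median deviation of all genes in WT4 from the control mean went from 0.32 log2 units in the shortest transcripts (genes split by length into 5 equal bins) to -0.12 in the longest. Among genes outside the set the median change between groups was 0.06 in the shortest bin, then -0.08, -0.14, -0.17 and -0.19. The members stood above these values in each bin, at 0.86 (53 members), 0.74 (23), 0.80 (3), 0.78 (1) and 0.62 (1). Among the knockouts, CKO12 was the highest for 68 members, and CKO13 and CKO8 the lowest for 39 and 29.

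**Figure D4:**
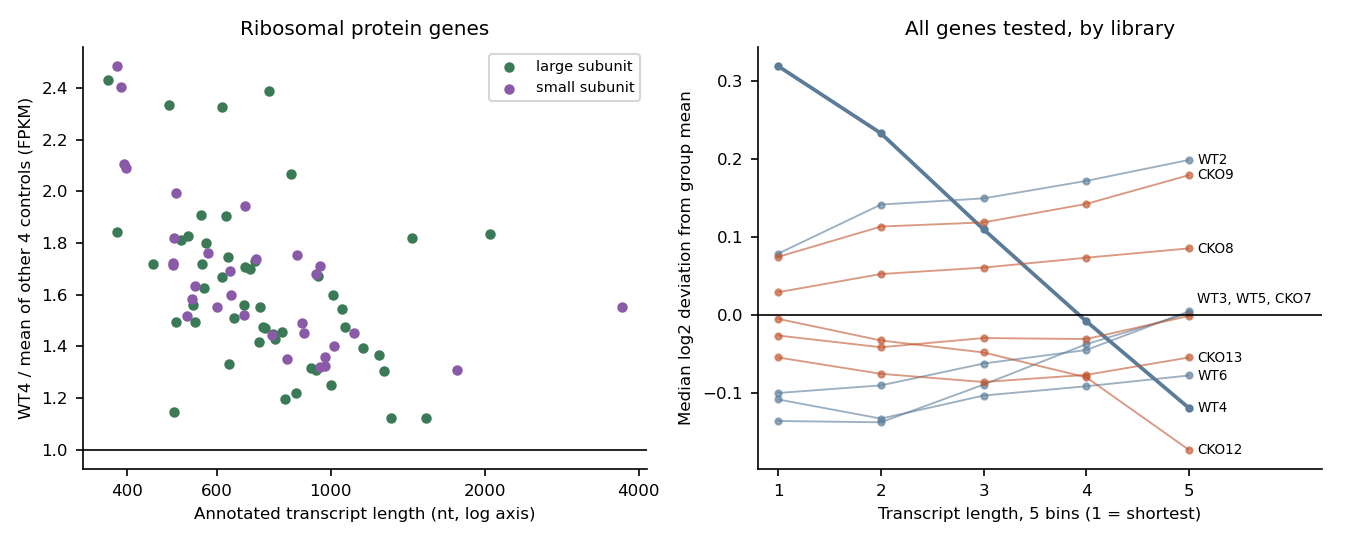
Left, the ratio of WT4 to the mean of the other 4 controls for each ribosomal protein gene against annotated transcript length (log axis). Right, the median log2 deviation of each library from its group mean over all genes tested, in 5 bins of transcript length (1 is the shortest); WT4 (thick line) runs from 0.32 to -0.12.

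Ribosomal proteins with other names rose as well. Rack1, a scaffold on the head of the small subunit, went from 381.7, 334.3, 381.1, 305.3 and 313.6 FPKM to 711.0, 671.0, 694.5, 731.9 and 676.9 FPKM (1.03 ± 0.12, adjusted p = 1.13e-05), and WT4 did not stand out. Fau, a ubiquitin-like fusion with a small-subunit protein, rose from 2279 ± 578 to 3132 ± 445 FPKM (0.48 ± 0.17, adjusted p = 0.0297). The call of Fau was lost without WT2, WT3, WT5, WT6, CKO7 or CKO12, with adjusted p up to 0.0836.

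Other mRNAs known to carry the TOP motif, mostly translation factors, moved in the same direction: 14 of 17 rose, 0 fell and the median change was 0.60. Of all genes tested, 21.1% rose. Eef1g, a subunit of the elongation factor that reloads tRNA onto the ribosome, rose from 400 ± 23.2 to 975.0 ± 66 FPKM (1.28 ± 0.12, adjusted p = 2.32e-06). Npm1, a nucleolar chaperone, rose from 561.4 ± 98.3 to 1317 ± 88.1 FPKM (1.24 ± 0.14, adjusted p = 9.6e-06) and the splicing regulator Hnrnpa1 from 233.6 ± 22.8 to 532.5 ± 45.6 FPKM (1.19 ± 0.12, adjusted p = 5.04e-06). The most abundant of the list, Eef1a1, rose less, from 6568 ± 341 to 9011 ± 937 FPKM (0.45 ± 0.14, adjusted p = 0.0139). Pabpc1 (0.21, adjusted p = 0.118), Vim (0.24, adjusted p = 0.0817) and Eif3f (0.31, adjusted p = 0.085) were not called.

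Proteins that escort or import ribosomal proteins changed in part: 6 of 17 rose, 0 fell and the median was 0.17. Of all genes tested 21.1% rose and 31.6% fell. The counts of escorts and importers moved with the scaling. The authors' size factors called 14 of 17 higher (median 0.55), beside 46.4% of all genes tested. Equal library totals called 6 higher, beside 15.3% of all genes tested, and 2 lower, Nop53 and Prmt3 (median 0.03). Nop53 was also called lower without CKO12 (-0.57, adjusted p = 0.00368) and with library weights (-0.47, limma adjusted p = 0.0257). The same held without WT4, CKO7 and CKO12 (-0.72, limma adjusted p = 0.000402), but its difference was 0.02 with the authors' size factors (limma adjusted p = 0.94). With the values as deposited, those that rose were the import receptors Ipo5 (0.84) and Tnpo1 (0.58), the Rpl3 chaperone Grwd1 (0.74), Bccip (0.49), an escort of Rpl23, Rpf2 (0.58), which helps seat the 5S particle, and the histone chaperone Nap1l1 (0.81), which is also on the TOP list. Of the mTORC1 and Larp1 genes, 9 of 14 were tested, while Mtor, Rptor, Larp1, Tsc1 and Eif4ebp2 were below the filter. Among the 9 tested, 0 rose and Akt1s1, an inhibitor within mTORC1, fell by 0.55. Among factors found at ribosomal protein promoters, 7 of 9 were tested, 0 rose and 3 fell, beside 21.1% and 31.6% of all genes tested. Max (-1.08), Mycn (-0.61) and Myc (-0.53, adjusted p = 0.0311) fell, and Myc went from 269.7, 207.8, 198.9, 264.7 and 226.5 FPKM to 216.6, 152.2, 159.1, 208.6 and 95.9 FPKM, with overlap. Gabpa (-0.18) and Gabpb1 (0.00) were not called, and Sp1 and Yy1 were below the filter. With median-of-ratios scaling the calls of Max and Mycn held and those of Myc and Akt1s1 were lost. That scaling called 1 of 9 mTORC1 or Larp1 genes higher, beside 28.9% of all genes tested. With the size factors of the authors' run the call of Max held and those of Myc, Mycn and Akt1s1 were lost. On that scale 2 of 7 promoter factors and 5 of 9 mTORC1 or Larp1 genes were called higher, beside 46.4% of all genes tested. Of 4 genes that link ribosomal proteins to p53, Trp53 rose from 200.5 ± 22 to 396.1 ± 39.2 FPKM (0.98 ± 0.12, adjusted p = 2.08e-05). Mdm2 (-0.24, adjusted p = 0.102), Mdm4 (0.09, adjusted p = 0.646) and Cdkn1a (-0.01, adjusted p = 0.973) were not called. Mdm2 was called lower without WT4 (-0.30, adjusted p = 0.0446) and with equal library totals (-0.38, adjusted p = 0.0407), but its difference was 0.15 with the authors' size factors (adjusted p = 0.232). Mdm4 was called higher with the authors' size factors (0.48, adjusted p = 0.00874).

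Promoter letters were set beside the changes as a description. Members whose window held CCGGAA had a median change of 0.87 (34 tested members) and those without it 0.79 (27). The medians with and without GGGCGG were 0.87 (39) and 0.79 (22), with and without AAGATGG 0.74 (10) and 0.80 (51), and with and without the pyrimidine run 0.88 (29) and 0.77 (32). These differences were not tested.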

How the data were processed

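Expression was measured in 10 libraries, 5 control and 5 knockout, and the deposited table holds 52097 genes. The header names no unit for the library columns: they were taken as FPKM made by the authors, because values of single-fragment genes scale with transcript length. Bowtie 0.12.9, Cufflinks 2.1.1, HTSeq and mm10 are listed, with no roles, per the submitters' processing notes. The mean normalized count of each gene is a signal the authors made with DESeq2, per the file headers. The log2 fold changes, the Wald statistic (a score) and each p-value and adjusted p-value were also deposited by the authors from that run, knockout over control by their sign.

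Columns were matched to groups by name and not to titled samples, since their numbers differ. Size factors were recovered from genes seen in 1 library, where 99.4% to 100.0% of values were whole multiples of 1 count (tolerance 0.01), and depth from the FPKM of such genes.

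The 6913 genes that reached 10 FPKM in 5 or more libraries were tested with limma 3.58.1 (R 4.3.3; trend and robust) on log2 of FPKM + 1, as deposited, with no covariate and Benjamini-Hochberg adjustment over all genes tested. The plan named a count model first and this test for normalized values. A filter of this kind lets a gene pass through the libraries of 1 group alone. Paralog ratios (6 pairs, adjusted over them) and the share of the library were tested with exact permutation (Python 3.11.15, scipy 1.17.1). On simulated data for this comparison (6913 genes, 200 changed), 34% of changes of 0.5 log2 units and 84% of changes of 1 were recovered, and 4.07% of calls were false. The simulated noise was independent between genes, and the changes were few and balanced in direction. In the data 21.1% of genes were called higher and 31.6% lower, and WT4 shifted many genes together, so these rates need not hold. Gene positions are from GENCODE M21, and promoters from RefSeq.

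Genes were named by rule: the paralog pairs, the 4 largest and 4 smallest changes of each subunit, members not called, Rpl5, Rpl11, the stalk genes, Rps19, Fau and Rack1. Some genes that the rule takes are not reported here. Genes named from the other lists (TOP mRNAs, escorts, mTORC1 and Larp1, promoter factors, p53) were chosen after their values were seen. The members, lists and rules were chosen with earlier results of these data known. Alternatives were other scalings, pseudocounts, filters, covariates, library weights and left-out libraries, of which the authors' size factors and leaving out WT4, CKO7 and CKO12 together were added after seeing the data.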

Additional observations from a re-analysis of the deposited data

Results flagged for a closer look

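In groups of 5 libraries, a highest or lowest value was marked where its gap to the nearest other library, divided by the range of the group, passed Dixon's 95% critical value of 0.71. Chance marks about 1 in 20 groups. Of 80 groups examined, 20 were marked, and in each of the 20 the marked value was the highest control, WT4. For the share of the library the gap was 0.894 of the range, for the summed large subunit 0.874 and for the summed small subunit 0.859.

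Among large-subunit genes the gap was 0.757 for Rpl10, 0.745 for Rpl10a, 0.891 for Rpl11, 0.791 for Rpl22, 0.758 for Rpl22l1 and 0.787 for Rpl27. It was 0.733 for Rpl29, 0.861 for Rpl36a, 0.876 for Rpl36al, 0.792 for Rpl39, 0.849 for Rpl5, 0.736 for Rplp0 and 0.804 for Rplp2. Among small-subunit genes it was 0.759 for Rps19, 0.739 for Rps27, 0.895 for Rps27l and 0.718 for Rps9. These groups share 1 library and are not independent.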

How the results depend on the processing

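Members called higher were 76 to 81 of 81 under the other scalings, pseudocounts, stricter or looser filters of FPKM, library weights and without WT4, CKO7 and CKO12, 75 of 84 with no filter, and 64 of 81 when the scores of bone matrix and granulocyte genes entered as covariates. All genes tested were called higher at 15.3% (equal totals) to 46.4% (authors' size factors) over the scalings, 3.28% with no filter, 13.4% and 27.6% with filters of 1 and 20 FPKM, and 13.8% with those covariates. 76 members were called higher under every scaling, and 0 were called lower in any fit run. With the erythroid score as a covariate 0 members, 0 of the large and 0 of the small subunit, were called higher. Leaving out single libraries gave 75 (without WT2 or WT3) to 81 (without WT4) members called, beside 17.9% to 23.3% of all genes tested, 46 to 49 large and 29 to 32 small. The same fits gave differences in the share of the library of 5.92 to 7.13 percentage points and a median change of the members of 0.75 to 0.94. In the other pathway lists, 23 genes were called higher and 4 lower, beside 21.1% and 31.6% of all genes tested. The lists did not move alike: 14 of 17 TOP mRNAs and 6 of 17 escorts and importers were higher. Against these, 0 of 9 mTORC1 and Larp1 genes and 0 of 7 promoter factors were higher. Genes of these lists called lower were 2 with median-of-ratios scaling, 7 with equal library totals, 1 with the shift to the authors' fold changes and 1 with the authors' size factors. The last 2 scalings called 40 and 42 genes of these lists higher, beside 43.3% and 46.4% of all genes tested. The cause of the loss with the erythroid score was not tested. The median change of all genes tested was -0.03, -0.13 and -0.25 with median-of-ratios, upper-quartile and equal-total scaling, and 0.26 and 0.27 with the shift and the authors' size factors. No paired analysis was possible because the library columns carry other numbers than the sample titles. Depth limits the 3 members below the filter, and the table gives no intervals for single libraries.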
